A study of Homo sapiens with 24 samples.

Results

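The genes that encode the proteins of the cytosolic ribosome were followed through H3K27ac ChIP-seq of human mammary epithelial cells. Members were all regions whose promoter annotation in the deposited tables named a gene with a symbol of RPL or RPS, digits and an optional A, X or L, or RPLP0, RPLP1, RPLP2, RPSA or RPS27A. This gave 712 of 171345 regions over 6 tables, and 92814 of all regions carried a promoter annotation of any gene. The member regions belonged to 78 genes, of which 75 came from a list of 77 core ribosomal proteins and 3 from a list of 4 tissue-restricted or stress-linked paralogs. RPS18 and the testis paralog RPL10L had no promoter region in any table and were not analysed here. RPS9 had a promoter region in 2 of the 6 tables, and RPL10 and RPL39 lacked 1 in a single table, so their values are given where they exist.

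H3K27ac is acetylation of histone H3 at lysine 27, found at promoters and enhancers in use, and ChIP-seq reads the DNA pulled down with an antibody to it. The series held 24 libraries in 8 groups of 3. MCF10A (10A), an immortalized and non-tumorigenic line, and MCFDCIS (DCIS), which models the early, in situ stage of triple negative breast cancer, each carried a lentiviral hairpin against ANCO1 (shANCO1) or a control hairpin (shCTRL). ANCO1 is the product of the ANKRD11 gene. All 4 lines had been infected and drug-selected, and per the study's legends the H3K27ac results come from the line of 1 ANCO1 hairpin, so effects of that hairpin sequence and of ANCO1 loss cannot be told apart. Each combination had an H3K27ac group and an input group of sonicated chromatin that was not precipitated. The tables compare the hairpins within a line (2 tables) and each precipitated group with input (4 tables). They give 1 value per region for whole groups and no value per library, so library depth and replicate spread were unknown, and these tables do not measure loss of ANCO1 itself.

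The ribosome joins a small subunit, which holds the mRNA and decodes it, to a large subunit, which forms the peptide bond and holds the exit tunnel. RPS genes encode proteins of the former and RPL genes those of the latter, each protein being needed in about equal number, and the genes are among the most actively transcribed in growing cells. Many of their transcripts begin with a C inside a run of pyrimidines, the TOP motif, through which mTOR signalling controls their translation. Several of these promoters also lie beside small nucleolar RNAs (snoRNAs) carried in the introns of the same genes.

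All member genes with a promoter region in an input table were enriched for H3K27ac over input. An enriched gene was one with a promoter region of direction up at an FDR under 0.05 in the authors' csaw test, which adjusts over all regions of a table. In 10A, 75 ribosomal protein genes were enriched in shCTRL cells, where 30.5% of GENCODE protein-coding genes were, and 77 in shANCO1 cells, where 51.7% were. In DCIS, 78 were enriched in shCTRL cells and 77 in shANCO1 cells, against 38% and 40.1% of protein-coding genes. These tables list only regions that were already enriched, apart from 2 in DCIS shCTRL cells, so presence in the table and the call were nearly the same thing. Members were also picked for having a promoter region in the deposited tables, which the protein-coding genes were not. Of the 77 genes on the fixed core list, 72 were enriched in 10A shCTRL and 74 in 10A shANCO1 cells. In DCIS, 75 of them were enriched in shCTRL and 74 in shANCO1 cells. RPL10, which joins the large subunit late near its catalytic centre, and RPL39, which lines the exit tunnel, were missing in 10A shCTRL cells alone. Both genes lie on the X chromosome, whose nearest region in that table was 335324 bp from the RPL10 start and 758071 bp from the RPL39 start.

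The size of the enrichment was read from a representative region of each gene, the promoter region with the most windows, a choice that does not use the change. A window is the short stretch of genome that csaw tests, and the tables give as a region's log2 fold change that of 1 representative window. The median log2 fold change over input was 2.95 in 10A shCTRL cells (quartiles 2.64 and 3.38) and 3.71 in 10A shANCO1 cells (3.24 and 4.005). In DCIS it was 4.35 in shCTRL cells (3.85 and 4.86) and 5.16 in shANCO1 cells (4.48 and 5.82). All promoter regions of the same tables had medians of 2.97 and 3.28 in 10A and 3.85 and 4.403 in DCIS, shCTRL before shANCO1. The ribosomal protein median stood at the level of other promoters in 10A shCTRL cells and above it in the other groups. The genes' median percentile among promoter regions was 48.4 in 10A shCTRL, 71.4 in 10A shANCO1, 66.6 in DCIS shCTRL and 75.7 in DCIS shANCO1 cells. Each table has its own scaling, which is not stated, so the difference in level between shCTRL and shANCO1 tables was not tested.

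**Figure D1:**
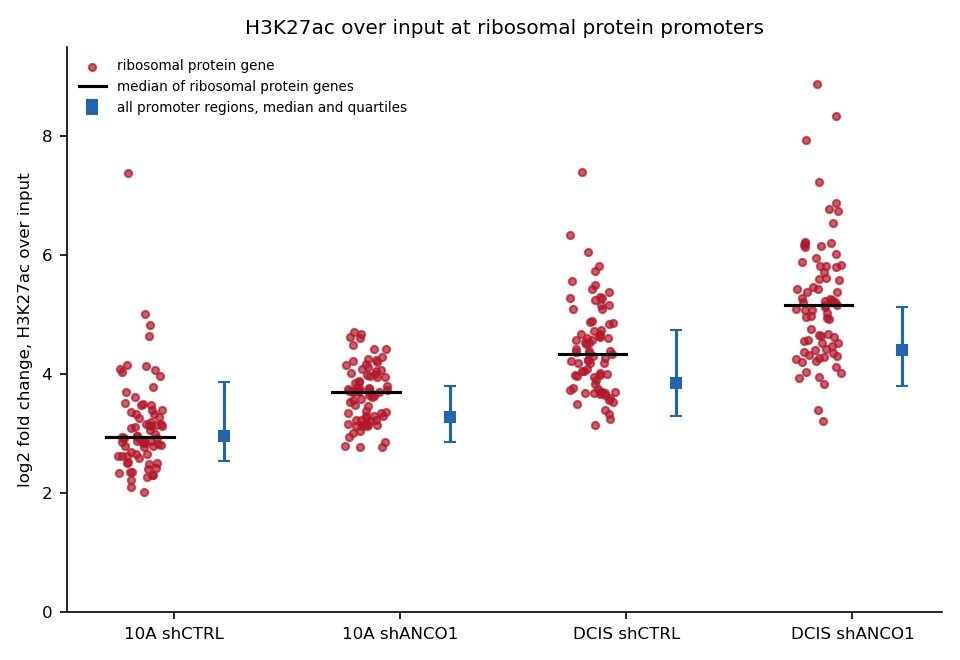
Log2 fold change of H3K27ac over input (vertical axis) at the representative promoter region of each ribosomal protein gene (red points, spread sideways for visibility), with their median (black line) and the median and quartiles of all promoter regions (blue) in the 4 precipitated groups. The black line lies beside the blue square in 10A shCTRL cells (2.95 and 2.97) and above it in the other groups, and DCIS shANCO1 cells hold the highest points, up to 8.87.

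Genes differed in enrichment, and the order changed between groups. In DCIS shANCO1 cells RPL5, which joins the 5S rRNA particle together with RPL11, was highest at 8.87, followed by RPSA at 8.34, RPS4X at 7.93 and RPL3 at 7.24. The lowest there were RPL39 at 3.21, RPL39L at 3.40, RPL9 at 3.83 and RPS25 at 3.93. In DCIS shCTRL cells the highest were RPS27L at 7.40, RPL23 at 6.34, RPS27A at 6.05 and RPS15A at 5.83, and RPL8, RPL15, RPL6 and RPS10 were lowest, between 3.15 and 3.40. In 10A shANCO1 cells the range was narrower. RPS7 at 4.72, RPL39 at 4.68, RPS4X at 4.63 and RPL4 at 4.61 led, and RPLP1, RPL10, RPL36 and RPL39L were lowest, between 2.77 and 2.86. In 10A shCTRL cells RPL7 stood alone at 7.39, with RPS23 at 5.01, RPL36A at 4.83 and RPL27A at 4.65 next, and RPL13 at 2.02, RPL28 at 2.10, RPS16 at 2.22 and RPL8 at 2.27 at the low end. With no reads per region, neighbours in these orders could not be told apart, and single high values depend on the unstated prior count.

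Ribosomal protein promoters carried broad acetylated stretches. Promoter regions of a ribosomal protein gene covered a median of 1200 bp in 10A shCTRL and 1900 bp in 10A shANCO1 cells over input, whereas those of all protein-coding genes in these tables covered 600 and 1300 bp. In DCIS they covered 1600 bp in either group, against 800 bp. In the direct comparison of hairpins the representative region had a median width of 3000 bp in 10A and 3300 bp in DCIS, against 2000 and 1700 bp for protein-coding genes. A promoter region covered the start of the canonical GENCODE transcript at 98.7% of ribosomal protein genes in either direct table, and at 75.2% of protein-coding genes in 10A and 61.6% in DCIS. In the input tables, whose regions are shorter, the share was 34.7% in 10A shCTRL, 81.8% in 10A shANCO1, 53.8% in DCIS shCTRL and 79.2% in DCIS shANCO1 cells, each above the 12.4%, 43.99%, 27.6% and 32.5% of protein-coding genes. From the start, regions in the direct tables reached a median of 934 bp upstream and 2030 bp downstream in 10A and 889 and 2192 bp in DCIS. The tested stretch thus extended further into the gene than away from it. Protein-coding genes had the same order with shorter reaches, 804 bp upstream and 1168 bp downstream in 10A and 783 and 1039 bp in DCIS. Ribosomal protein regions enriched over input reached less far where they covered the start. Their medians were 426.5 and 1084 bp in 10A shCTRL and 619 and 1205 bp in 10A shANCO1 cells. In DCIS they were 418 and 1109 bp in shCTRL and 488 and 1021 bp in shANCO1 cells. The promoter annotation of the representative region also named a snoRNA at 29 of 77 genes in 10A, which is 37.7%, against 0.93% of protein-coding genes. This counts annotation entries and does not show that these snoRNAs have promoters of their own. Only 18 of these 77 regions (23.4%) named the promoter of no other gene, against 52.6% for protein-coding genes. Ribosomal protein genes also have many processed pseudogenes, and how reads that match several places were treated is not given in the sources used here, so values over exons are uncertain in this respect.

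The start sites themselves were read from RefSeq promoters on GRCh38.p14, which matched 62 of the 78 member genes by symbol and held 79 entries for genes of this naming. A run of at least 5 pyrimidines held the start base in 63.3% of these 79 entries and in 9.60% of all 35116 promoters of the table. The start base was C in 64.6% and 14.7%. Exact matches on either strand were then counted in the 300 bases from 250 before the start. The ETS-type sequence CCGGAAG occurred in 34.2% of ribosomal protein promoters and 10.3% of all, the GC box core GGGCGG in 55.7% and 45.0%, and the YY1-type sequence AAGATGG in 10.1% and 5.84%. TATAAA occurred in 7.59% and 11.5%, the E-box CACGTG in 5.06% and 7.26%, and the AP-1 sequence TGACTCA in 1.27% and 4.95%. None of these motifs contains another. A match describes letters in this window and not a bound factor.

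The stretch from 35 bases before the start, 60 bases in all, is shown 5′ to 3′ for genes on which the comparison of hairpins turned. RPS6, RPL24, RPL26 and RPS28 were called up in both lines by representative region, RPL35A in DCIS only and RPS21 had the highest value in 10A, RPLP1 and RPS12 had opposite signs in the lines, and RPS27L is a paralog. The start is the 36th base, and capitals mark the pyrimidine run that holds it.
RPS6 (chr9:19380212-19380271, minus strand): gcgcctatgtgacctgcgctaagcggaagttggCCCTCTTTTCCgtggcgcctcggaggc
RPL24 (chr3:101686694-101686753, minus strand): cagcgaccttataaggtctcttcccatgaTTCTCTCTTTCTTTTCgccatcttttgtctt
RPL26 (chr17:8383169-8383228, minus strand): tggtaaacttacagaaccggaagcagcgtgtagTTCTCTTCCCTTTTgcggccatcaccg
RPS28 (chr19:8321461-8321520, plus strand): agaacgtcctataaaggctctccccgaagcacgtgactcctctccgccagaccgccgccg
RPL35A (chr3:197950155-197950214, plus strand): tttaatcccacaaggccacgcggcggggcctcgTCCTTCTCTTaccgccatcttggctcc
RPS21 (chr20:62387068-62387127, plus strand): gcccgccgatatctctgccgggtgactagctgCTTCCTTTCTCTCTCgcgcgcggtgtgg
RPLP1 (chr15:69452783-69452842, plus strand): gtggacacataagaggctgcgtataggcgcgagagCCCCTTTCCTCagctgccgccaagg
RPS12 (chr6:132814534-132814593, plus strand): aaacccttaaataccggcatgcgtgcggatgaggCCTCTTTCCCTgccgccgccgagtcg
RPS27L (chr15:63157453-63157512, minus strand): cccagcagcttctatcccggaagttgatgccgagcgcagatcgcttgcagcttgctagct

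Of the genes shown, 7 start at a C inside a run of 10 to 16 pyrimidines. RPS28 starts at an A in RefSeq and the paralog RPS27L at a G, so neither has a run at that base. Each of these start bases lay inside a tested region of both direct tables. In 10A the median log2 fold change was 0.70 over the 47 genes with a run of at least 5 and 0.64 over 14 with a shorter run or none, and in DCIS it was 0.45 over 48 genes and 0.63 over 14. The order of the 2 sets thus turned between the lines, and no difference between them was tested.

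The direct comparison within each line asks how H3K27ac differs once ANCO1 is depleted. In 10A, many ribosomal protein promoters had more H3K27ac in shANCO1 cells, as promoters in general did, and their median change was below that of other promoters. Of 128 regions, 60 (46.9%) were up in shANCO1 cells at an FDR under 0.05 and 0 were down. Up regions made up 43.6% of all regions and 50.8% of promoter regions in this table, and down regions 0.225% and 0.128%. By representative region, 42 of 77 genes (54.5%) were up and 0 were down, whereas 63.8% of protein-coding genes were up and 0.0477% were down. RPS2 and RPL3L share a region that counts for both, and with it counted once 41 of 76 (53.9%) were up. The log2 fold change was positive at 76 of 77 genes, with a median of 0.69 (quartiles 0.53 and 0.93). The median was 0.76 over all regions and 0.79 over promoter regions, so only 28 of the 77 genes lay above the promoter median. Protein-coding genes had 0.83 by representative region. Small subunit genes had a median of 0.71 with 18 of 29 up, and large subunit genes had 0.68 with 24 of 48 up. Because the normalization is not stated, a general gain and an offset made by scaling cannot be told apart.

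The lowest FDR values in 10A did not all mark the largest changes. RPL27A had the lowest, 0.000307, at a log2 fold change of 0.70 with 15 of 28 windows up. RPS27A, which encodes ubiquitin fused to a small subunit protein, had 1.00 (FDR of 0.000423), and 23 of its 34 windows were up. The region of RPS27, 0.80 at an FDR of 0.000433, lay 3862 bp or more upstream of the canonical start and is shared with the RAB13 promoter annotation, and the region over the RPS27 start had 0.54 at an FDR of 0.0367. The region of RPS29 (0.93, FDR of 0.000596) likewise lay 11121 bp or more upstream, where LRR1 is also annotated, and the region over the RPS29 start had 0.53 (0.149). RPS13 had 0.84 (FDR of 0.000597), RPS21 1.502 (0.00106), RPS15 1.33 (0.00117) and RPL18 1.01 (0.00144). RPS21 and RPS15, a protein of the head of the small subunit, were also the highest by value and the only genes above the 90th percentile of promoter regions. They were followed by RPL14 at 1.22 (FDR of 0.00216), RPLP1 at 1.16 (0.0497) and RPL39 at 1.15 (0.0173).

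At the low end in 10A, the paralog RPL39L had -0.49 (FDR of 0.667) at its region far upstream, RPL29 0.39 (0.232), RPS4X 0.40 (0.160) and RPL37A 0.41 (0.0561), and none was called. Among genes followed by name, RPL5 and RPL11, whose 5S particle binds MDM2, were up by 0.62 (FDR of 0.0347) and 0.48 (0.0369). RPS6, the small subunit protein that S6 kinases phosphorylate, was up by 1.04 (0.00254), RPL10 by 1.13 (0.00203) and RPSA by 0.52 (0.0455). Of the stalk proteins, which recruit elongation factors to the large subunit, RPLP1 and RPLP2 were called, RPLP2 at 0.94 (0.0427), and RPLP0 had 0.58 (0.112).

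**Figure D2:**
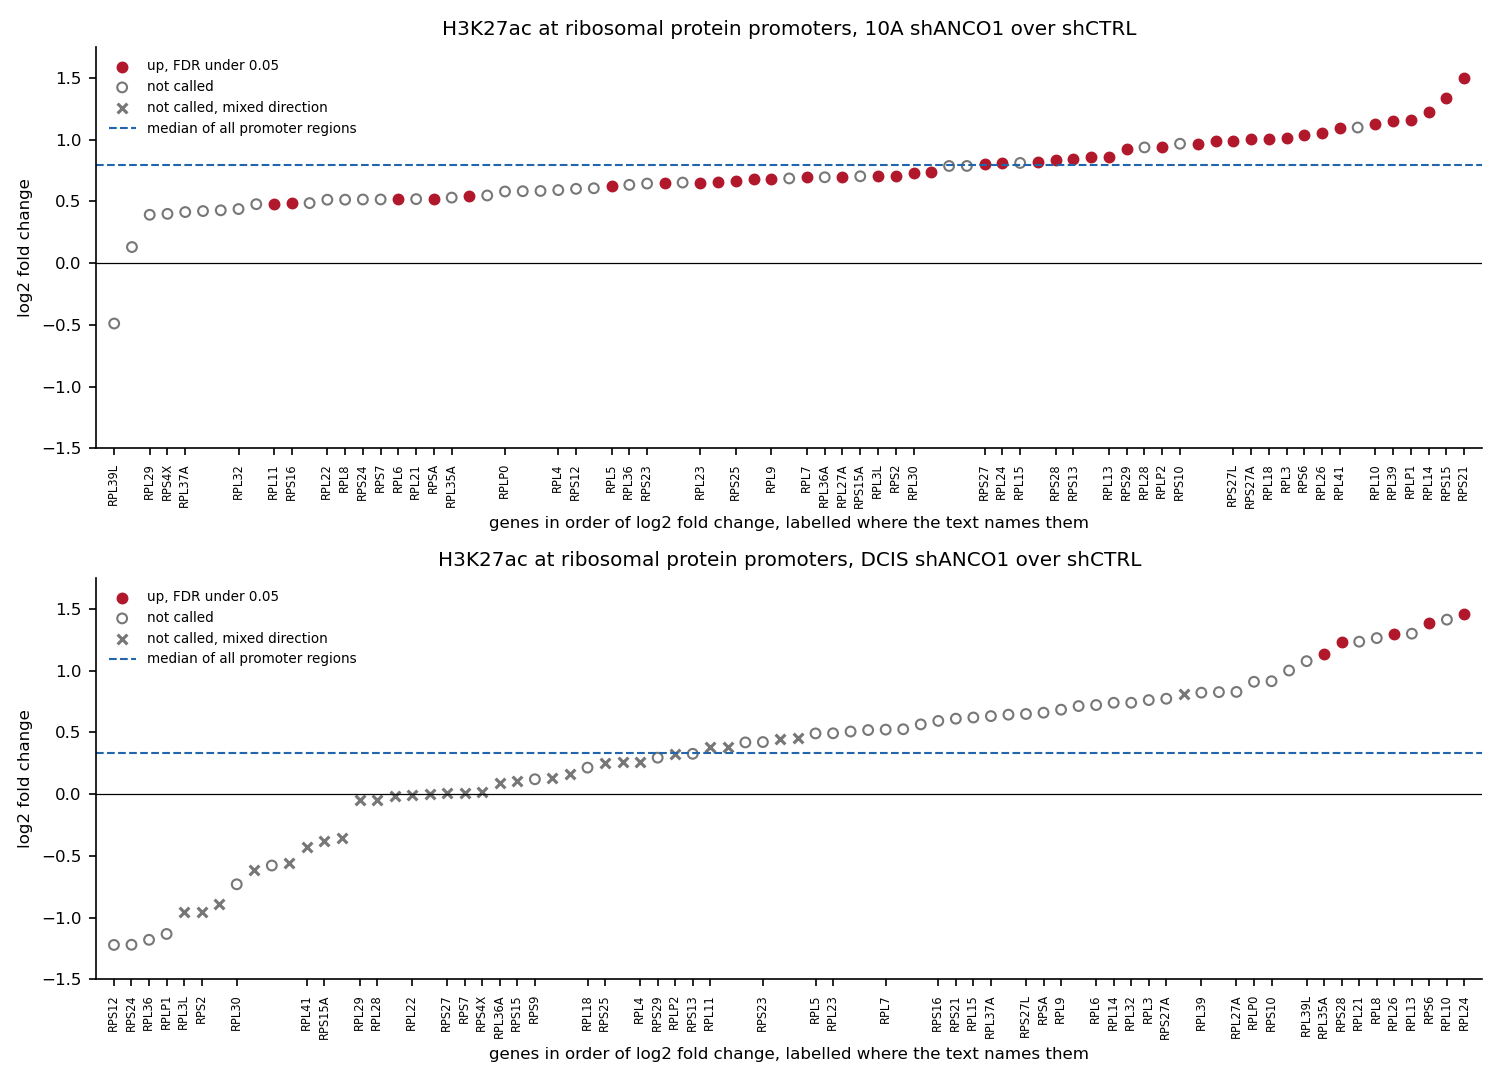
Log2 fold change of shANCO1 over shCTRL (vertical axis) at the representative promoter region of each ribosomal protein gene, ranked along the horizontal axis and labelled where the text names it, in 10A (top) and DCIS (bottom). Filled red points are up at an FDR under 0.05, open points and crosses are not called, crosses have mixed direction, and the dashed line is the median of all promoter regions; 76 of 77 genes lie above 0 in 10A and 60 of 78 in DCIS, where 5 are called.

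In DCIS, few ribosomal protein promoters passed the test. Of 136 regions, 11 (8.09%) were up and 0 were down, whereas up regions made up 23.6% of all regions and 16.3% of promoter regions, and down regions 4.86% and 3.27%. By representative region, 5 of 78 genes (6.41%) were up and 0 were down, against 12.2% and 2.24% of protein-coding genes. The median log2 fold change was 0.45 (quartiles 0.01 and 0.74), below the 0.52 of all regions and above the 0.33 of promoter regions. Over all 136 ribosomal protein regions it was 0.35, and protein-coding genes had 0.26 by representative region. Values of the representative regions ran from -1.22 to 1.46, and 60 of 78 genes were positive. Large subunit genes had a median of 0.51 with 3 of 48 up, and small subunit genes had 0.27 with 2 of 30 up. The direction was mixed, meaning that windows of 1 region pointed both ways, at 29 of 78 genes (37.2%), close to the 33.1% of protein-coding genes. In 10A it was mixed at 0 genes, and at only 2.24% of protein-coding genes.

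The genes called up in DCIS were RPL24, RPS6, RPL26, RPL35A and RPS28, each at a region over its start. RPL24, which helps to bridge the subunits, reached a log2 fold change of 1.46 at an FDR of 0.000244, and 15 of its 22 windows were up. Its region ran from 101685301 to 101687600 on chromosome 3 and named no other promoter. RPS6 had 1.39 (FDR of 0.00124), with 3 of 33 windows up, from 19377401 to 19381100 on chromosome 9. RPL26 had 1.29 (FDR of 0.0135), RPS28 1.23 (0.0411) and RPL35A, a Diamond-Blackfan anaemia gene, 1.13 (0.0303), and each of these 3 had 3 windows up. RPL10 at 1.41 (FDR of 0.0814) and RPL13 at 1.30 (0.154) were among the 5 highest and were not called. The lowest were RPS12 at -1.22 (0.899), RPS24 at -1.22 (0.444), RPL36 at -1.18 (0.414), RPLP1 at -1.13 (0.120) and the region shared by RPL3L and RPS2 at -0.95 (0.526), and none of these was called. Of the other genes followed by name, RPLP0 had 0.91 (0.356), RPS27A 0.77 (0.785), RPSA 0.66 (0.806), RPL5 0.49 (0.519), RPL11 0.38 (0.729), RPLP2 0.32 (0.923) and RPS4X 0.02 (0.996), all uncalled. None of the 29 genes whose region was also annotated to a snoRNA was up in DCIS, against 5 of the 49 without, while in 10A 19 of 29 and 23 of 48 were up. The DCIS medians of the 2 sets were close, 0.46 with a snoRNA and 0.42 without. With so few calls, a difference between the sets was not tested.

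The other 6 up regions of DCIS were not the representative region of their gene. The largest gain of any member region lay upstream of RPL8, a large subunit protein near the catalytic centre, 2811 to 7310 bp from its start, where ZNF517 and MIR6850 are also annotated. Its log2 fold change was 3.05 (FDR of 1.51e-07) and 25 of 38 windows were up, while the region over the RPL8 start had 1.26 and an FDR of 0.302. Next was a region of RPL39L, 43205 to 44304 bp upstream of its canonical start, with 2.41 (FDR of 0.000130) and 10 of 10 windows up. The remaining up regions belonged to RPL27A (1.22, FDR of 0.0271), RPLP0 (1.22, 0.0368), RPL6 (1.07, 0.0172) and RPS2 (1.05, 0.0377). Those of RPL27A and RPLP0 began 2909 and 4811 bp downstream of the start, that of RPL6 lay 9596 bp or more upstream beside PTPN11, and that of RPS2 covered the start. No region was down at this FDR, and the nearest was a region of 2 windows in RPL21, 2943 to 3242 bp downstream of its start, with -1.32 and an FDR of 0.0795.

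**Figure D3:**
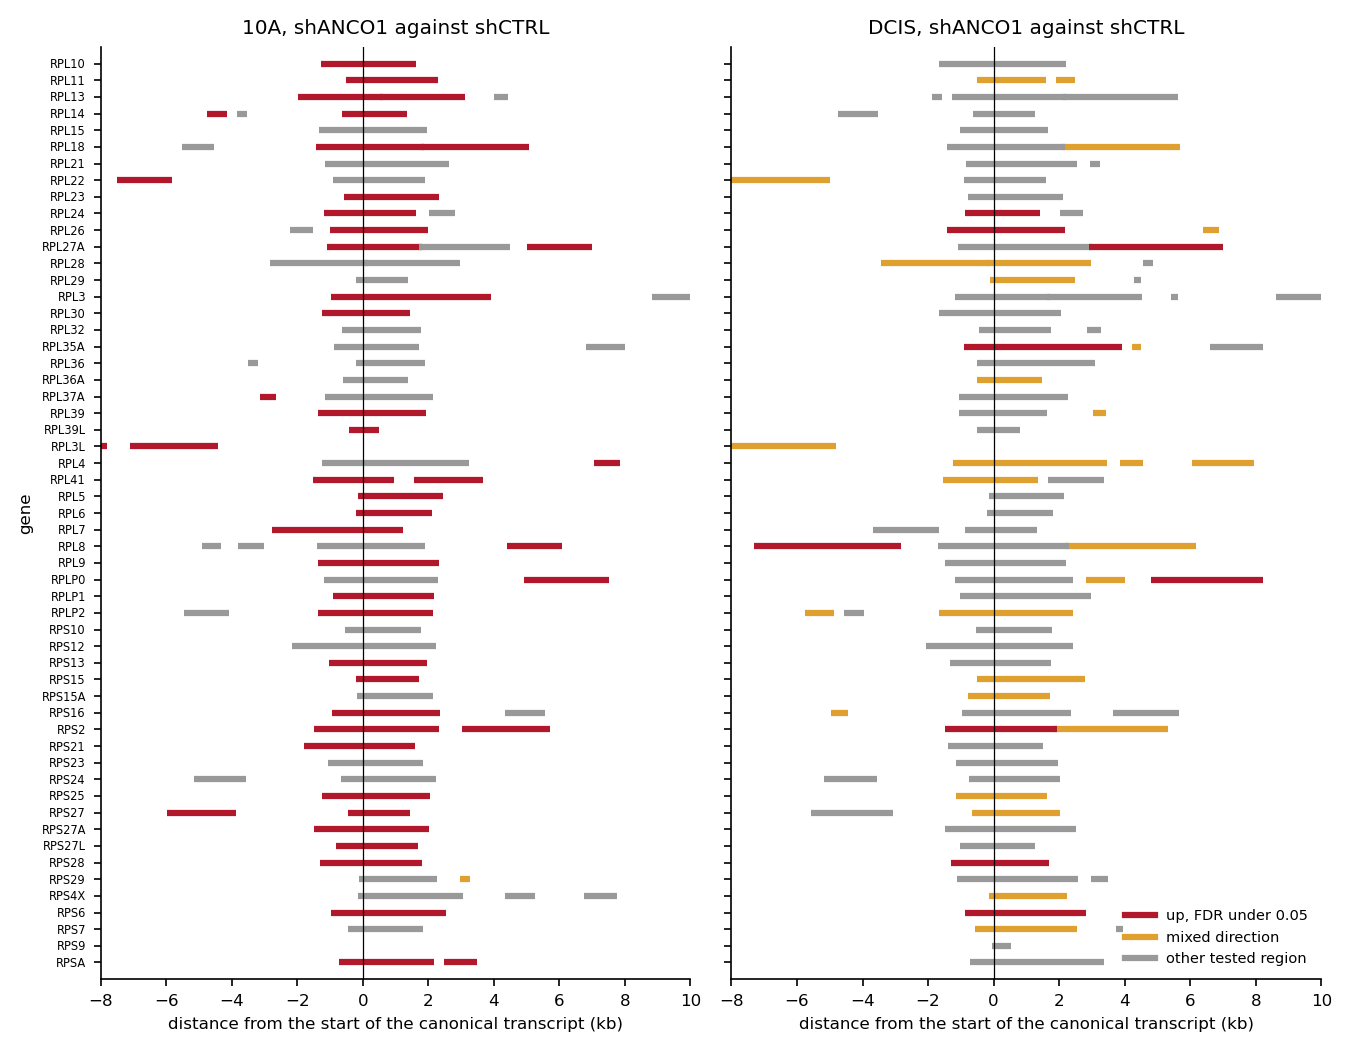
Promoter-annotated regions of the 55 ribosomal protein genes named in the text (rows) by distance from the start of the canonical GENCODE transcript in kb along the gene's strand, in the 10A (left) and DCIS (right) comparison of shANCO1 with shCTRL. Red bars are up at an FDR under 0.05, amber bars have mixed direction and grey bars are other tested regions; bars over 0 kb are red at most genes in 10A and at few in DCIS, and 4 gene-region pairs in 10A and 5 in DCIS lie outside the frame of -8 to 10 kb.

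Because ribosomal protein regions were long, and among all promoter regions the longest were called most often in either line, the shares were also read within strata of length, a split chosen after the data had been seen. In 10A, 18.5% of the 27 ribosomal protein regions with 1 to 9 windows were up, against 27.7% of all promoter regions of that length. The shares were 45.0% and 56.7% at 10 to 19 windows (20 regions), 59.6% and 73.8% at 20 to 29 (47 regions), and 52.9% and 84.8% at 30 to 50 (34 regions). In DCIS they were 3.13% and 15.1%, 5.56% and 14.3%, 9.68% and 19.5%, and 10.9% and 24.3%, over 32, 18, 31 and 55 ribosomal protein regions. The ribosomal protein share was the lower in each stratum of both lines. Counted by window, 639 of 2803 windows (22.8%) of these regions were up in 10A and 75 of 3163 (2.37%) in DCIS, against 38.5% and 11.9% in all promoter regions. Windows within a region overlap and are not independent, and no test was made.

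**Figure D4:**
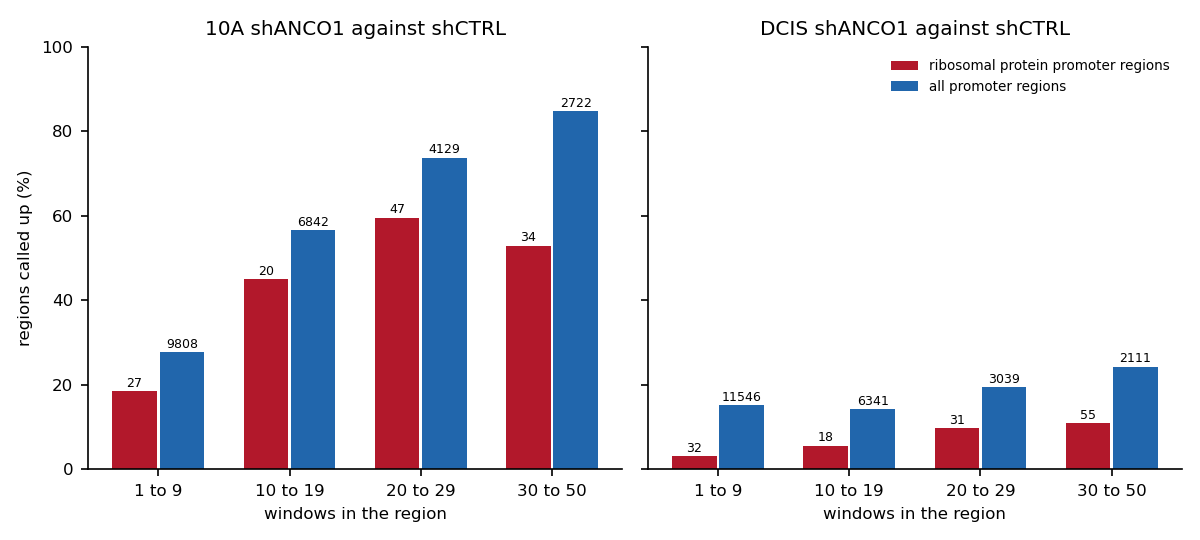
Share of regions called up at an FDR under 0.05 (vertical axis, percent) by the number of windows in the region (horizontal axis), for ribosomal protein promoter regions (red) and all promoter regions (blue) in 10A (left) and DCIS (right), with the number of regions above each bar. The red bar is the shorter of each pair, and the gap in 10A is widest at 30 to 50 windows, 52.9% against 84.8%.

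The lines were compared at the region over the canonical start, which 76 genes had in both, since the representative regions of 7 genes covered the start in 1 line only and those of RPL39L, RPL22, RPS27 and RPS29 did not overlap between the lines. This choice was made after the values were seen. At the start, 5 genes were up in both lines (RPS6, RPL24, RPL26, RPS28 and RPS2), 36 were called in 10A only, 1 in DCIS only (RPL35A) and 34 in neither. By representative region, 4 of 77 were up in both, and RPS2 was not among them because its DCIS region of most windows lies beside the start. A call in a single line does not show that the lines differ, which was not tested. Overlaps between the lines were not counted over all protein-coding genes, so these counts cannot be read as particular to ribosomal protein genes. By representative region, 63.8% of protein-coding genes were up in 10A and 12.2% in DCIS, and 98.3% and 62.7% had positive values. The log2 fold change at the start was positive in both lines at 62 genes and positive in 10A but negative in DCIS at 14, and no gene had the reverse. Across the 76 genes, which share libraries and are not independent replicates, Spearman's rho between the lines was 0.173 and Pearson's r was 0.155. Across representative regions they were 0.0963 and 0.0530 for 77 ribosomal protein genes and 0.0649 and 0.0570 for 11766 protein-coding genes. After the promoter median of each line was subtracted, the largest gaps at the start among genes of opposite sign were at RPLP1 (1.83 for 10A minus DCIS), RPS12 (1.36), RPL36 (1.35), RPS24 (1.27), RPL41 (1.06) and RPL30 (1.002). RPLP1 was up by 1.16 in 10A, where 2 of 29 windows were called, and had -1.13 in DCIS, where 1 of 38 windows was called down. RPL8, with positive values in both lines, had a gap of -1.21, from 0.51 in 10A and 1.26 in DCIS, neither of them called.

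**Figure D5:**
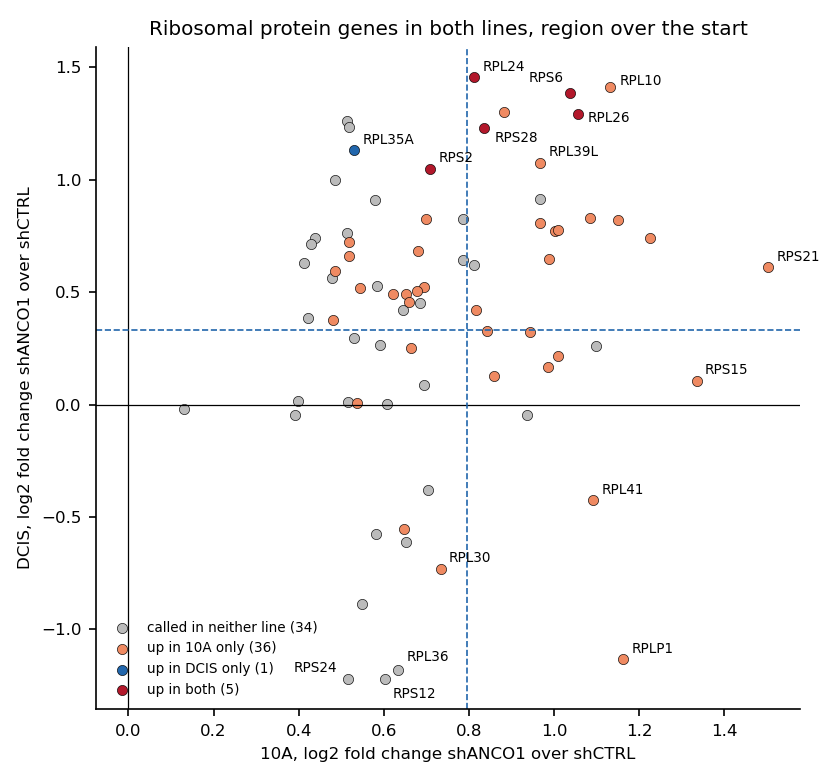
Log2 fold change of shANCO1 over shCTRL in 10A (horizontal axis) and DCIS (vertical axis) at the region over the canonical start of 76 ribosomal protein genes, coloured by the line in which that region was called up, with dashed lines at the promoter median of each line. The points scatter widely (Spearman's rho 0.173), 5 genes are up in both lines, and RPLP1 lies apart at the lower right.

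RPL24, RPL35A and RPL39L, all with an up region in DCIS, lie on the long arm of chromosome 3. This was seen only in the results and was then described for the whole arm. Their median representative value was 1.13 in DCIS and 0.53 in 10A, where RPL39L is represented far upstream, and at the region over the start it was 1.13 and 0.81, whereas the 5 genes of the short arm (RPL32, RPL15, RPSA, RPL14 and RPL29) had 0.66 and 0.52, with 0 up in DCIS. Promoter regions from 80 Mb on chromosome 3 that named no ribosomal protein gene had a median of 0.84 in DCIS with 31.5% up (744 regions), against 0.29 and 15.5% on the rest of that chromosome (582 regions) and 0.31 and 15.8% elsewhere (21575 regions). In 10A the same medians were 0.81, 0.79 and 0.79. Other promoters beyond 80 Mb, which is nearly the long arm, thus had high values in DCIS too, and the part of position in the calls of these genes was not tested. Without chromosome 3, 8 of 121 ribosomal protein regions (6.61%) and 3 of 70 genes (4.29%) were up in DCIS.

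The other parts of the translation machinery were read for comparison. FAU and RACK1, ribosomal proteins with other symbols, had 0.81 and 0.81 in 10A, where RACK1 was up (FDR of 0.00253), and 0.28 and 0.98 in DCIS, where neither was called. Their list held 3 genes with values, of which 1 was up in 10A and 0 in DCIS, and its lowest values were 0.78 in 10A and 0.03 in DCIS. A mixed list of translation factors and some TOP genes does not stand for the TOP class. Of its genes, 22 of 30 were up in 10A (73.3%, median 0.72). They were led by the initiation factor subunit EIF3C at 1.83, whose near-identical copy EIF3CL makes its value uncertain. In DCIS 1 of 29 was up (3.45%, median 0.44), EIF3K at 1.80 (FDR of 0.000442). Of ribosome biogenesis and RNA polymerase I genes, 26 of 44 were up in 10A (59.1%, median 0.80) and 4 of 44 in DCIS (9.09%, median 0.32). Those in DCIS were PES1, NOLC1, EIF6 and DKC1, with 1.09, 1.97, 1.62 and 0.92. Of mitochondrial ribosomal protein genes, 38 of 74 were up and 1 was down in 10A (median 0.65), and 3 of 74 were up in DCIS (median 0.08), MRPL52 among them with 2.52 and an FDR of 5.97e-08. The down gene was MRPL28 at -0.98 (FDR of 0.0244). Cytosolic ribosomal proteins, 54.1% and 6.67% of whose core list were up in 10A and DCIS, lay within the range of these lists in either line, and each list lay below the 12.2% of protein-coding genes in DCIS.

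Of the paralogs, RPL39L, mainly a testis gene, had 2 regions in each line. The region over its canonical start had 0.97 in 10A (FDR of 0.00595, 6 of 8 windows up) and 1.08 in DCIS (0.0888), while the upstream region had -0.49 in 10A with 0 of 16 windows up and 2.41 in DCIS. RPS27L, a target of p53, had 0.99 in 10A (0.0119) and 0.65 in DCIS (0.574), and its enrichment over input in DCIS shCTRL cells was the highest of the group at 7.40. RPL3L, a muscle gene, was named only through regions 4412 bp or more upstream of its start that cover the neighbouring RPS2 and its snoRNAs. Its values of 0.71 in 10A (0.0494) and -0.95 in DCIS come from different regions shared with RPS2, only the first of which covers the RPS2 start, and cannot be assigned to RPL3L.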

How the data were processed

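H3K27ac ChIP-seq had been done on 3 libraries for each of 4 combinations of line and hairpin, with 3 inputs each. According to its methods section, the authors used BWA and Rsubread for alignment (GRCh38), samtools for duplicate removal and csaw for differential binding. The normalization, window filter and prior count were not given in the sources used here. The deposited tables hold the authors' comparisons and nothing else. Their log2 fold changes, p-value based FDR and numbers of windows per region were used as deposited, with the 3 libraries of each group pooled by the authors' test, so no count, depth or interval could be given. Values per library were not analysed here. Nothing says that the triplicates came from separate cultures, so the FDR may measure technical spread only.

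Members and lists were chosen with earlier results of these data known. Regions with a promoter entry were matched by symbol, and each gene was represented by its region with the most windows (ties by width, then lower start). Calls were an FDR under 0.05 and the authors' direction. No test was made over the members. Shares are set beside those of all regions, promoter regions and protein-coding genes. Of 725 gene-region pairs, 95.0% lay within 3 kb of the GENCODE release 44 gene of that symbol on GRCh38, and distances are from its canonical transcript. Named were genes called in a line if 10 or fewer, otherwise the 8 of lowest FDR, the 5 highest and lowest values, the 6 largest gaps between lines among genes of opposite calls or signs (read at the start, since RPL39L and RPS2 came from unlike regions), the 4 highest and lowest over input, and RPLP0, RPLP1, RPLP2, RPSA, RPS6, RPL5, RPL11, RPS27A, RPL10, RPS4X and the paralogs. Others named were chosen after their values were seen, and a few items that meet this rule are not reported here. Alternatives were other FDR limits, a minimum change, centring, direction by sign, at least 5 windows, other representative regions and regions that name ribosomal protein promoters only. Leaving out chromosome 3, strata of length and the region over the start in both lines were added after the data were seen. Scripts ran in Python 3.11.15 with pandas 2.3.3 and were tested on simulated data.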

Additional observations from a re-analysis of the deposited data

How the results depend on the processing

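No paired analysis was possible because the tables hold 1 value per region for whole groups and no value per library, and leaving out each replicate was not run for the same reason. Of 112 alternatives computed, 83 stayed within 1.5 times the count or 0.1 log2 units of the median, 26 moved further and 3 reversed the sign of a median. Part of the 83 was fixed in advance. A down count of 0 cannot fall under a stricter limit, and the input tables list almost only regions that were already enriched. The tally therefore does not measure how robust the results are. At an FDR under 0.01, the up counts were 22 regions and 14 genes in 10A and 4 regions and 2 genes in DCIS. A log2 fold change of at least 1 left 22 regions and 12 genes in 10A. At 1 log2 unit or more above the median of the table, 0 regions and 0 genes were up in 10A, and 2 regions and 0 genes in DCIS. Regions that name only ribosomal protein promoters, 25 in each line, held 12 up regions and 11 up genes in 10A and 3 and 2 in DCIS, and left 19, 20, 19 and 20 genes enriched in 10A shANCO1, 10A shCTRL, DCIS shANCO1 and DCIS shCTRL cells, since fewer genes could be tested. Taking the region of lowest FDR raised the DCIS gene count to 11 and the 10A median to 0.80. Without chromosome 3, 3 genes were up in DCIS. At an FDR under 0.1, 1 region was down in DCIS. The median change turned negative after subtracting the median of all regions, to -0.078 in 10A and -0.069 in DCIS. After subtracting the promoter median it was -0.11 in 10A and 0.12 in DCIS. That promoter median covers regions of any length, whereas the representative regions were long. Within strata of length, the DCIS medians of ribosomal protein and all promoter regions were 0.001 and 0.24 at 1 to 9 windows. They were 0.21 and 0.34 at 10 to 19, 0.56 and 0.49 at 20 to 29, and 0.45 and 0.68 at 30 to 50. The place above other promoters in DCIS thus held only at 20 to 29 windows. In 10A the medians were 0.61 and 0.63 at 1 to 9 windows and 0.65 and 0.84 at 10 to 19. They were 0.70 and 0.87 at 20 to 29, and 0.69 and 0.93 at 30 to 50. Over all promoter regions of these genes, the median over input was 3.56 in 10A shANCO1, 4.93 in DCIS shANCO1 and 4.06 in DCIS shCTRL cells. The cause of these shifts was not tested. Replicate spread and depth were unknown, region lengths depend on the authors' merging of windows, and many regions are shared with snoRNAs or neighbouring genes.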
